A study of Mus musculus with 9 samples.

Results

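The genes described here are the heat shock proteins and molecular chaperones of the mouse ventricle that an oligonucleotide array measured: 71 genes of the 8252 that had a probe set with 1 gene symbol. They were taken by symbol alone: the HSP70, HSP90, HSP60/HSP10 and small heat shock protein genes, the J proteins, the CCT chaperonin, the BAG factors, protein disulfide isomerases, calreticulin and calnexin, the HSP90 co-chaperones Stip1, Fkbp4 and Fkbp5, and the heat shock factors. The rule used no measured value except brightness: each gene is represented by the probe set with the highest mean intensity over the 9 arrays. These 71 genes hold 105 probe sets, of 12488 on the array.

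The study compared ventricles of 3 groups of mice, with 3 arrays per group. The caPI3K mice are transgenic for an always active form of phosphoinositide 3-kinase (PI3K), and by the labels their hearts are larger than in wild type littermates by 20%. The dnPI3K mice carry a dominant negative form, with hearts given as 17% smaller. The NTG mice carry no transgene. PI3K relays signals from the insulin and insulin-like growth factor receptors to the kinase Akt. The promoter of the transgenes, the strain, and the age and sex of the mice are not given in the sources used here.

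Chaperones bind unfolded or partly folded proteins and keep them from aggregating. HSP70 does so in cycles driven by ATP: J proteins deliver the client and start hydrolysis, and HSP110 and BAG proteins release the nucleotide. HSP90 takes over later folding steps of kinases and receptors with co-chaperones such as Stip1 and Fkbp4, the CCT ring folds actin and tubulin, and small heat shock proteins hold damaged proteins in cardiac muscle. The endoplasmic reticulum and the mitochondria have chaperone sets of their own. Heat shock factors induce many cytosolic members through heat shock elements in DNA, and the unfolded protein response induces those of the endoplasmic reticulum.

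A gene's values are quantile-normalized intensities of its brightest probe set, given as mean ± SD of 3 arrays. Fold changes are on the log2 scale with their standard error (SE) from limma, and a gene passed the test at a Benjamini-Hochberg adjusted p below 0.05 over the 10645 probe sets tested. "Higher" and "lower" describe values, and "rose" or "fell" only genes past that test. Of the 71 genes, 70 were tested. Hsf2, which encodes a heat shock factor, was too dim, at 14.6 to 24.0 in NTG, 24.0 to 44.9 in caPI3K and 16.7 to 20.2 in dnPI3K. Among the tested genes, 6 had arrays at or below the floor of 35.34 set on low intensities (Calr, Hsf4, Dnajb3, Dnajb8, Hspb1 and Hspb11), so their fold changes depend on that floor.

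Arrays of a group correlated at 0.947 to 0.966 and arrays of different groups at 0.939 to 0.959. The dnPI3K arrays stood apart from the other 6: their animal numbers form a separate series, they scored 26.4 to 28.9 on the first principal component against -22.9 to -1.33, and the geometric mean of their bacterial and phage spike-in controls was 268.9 to 366.7 against 431.9 to 584. In every comparison with dnPI3K, genotype and number series cannot be told apart. NTG replicate 2 stood apart on the second component, at -38.99 against -6.41 to 17 for the other arrays. Of 10 cardiomyocyte markers 9 were measured, with summed intensities of 231804 to 261350 over all arrays, and 1 of them, Mybpc3, was higher in dnPI3K than in NTG (log2 0.46, limma adjusted p = 0.0336). The sum of 4 atrial markers varied widely within groups, at 2118 to 21023 in NTG, 2424 to 13434 in caPI3K and 8684 to 11332 in dnPI3K. Of the 4, 2 fell in dnPI3K against NTG (Myl4, log2 -5.48, limma adjusted p = 0.04, and Myl7, -5.19, limma adjusted p = 0.0476). Nppa and Sln went the other way without overlap, and neither passed (1.48 and 0.74, limma adjusted p = 0.148 and 0.456). Nppa, with means of 4046 in NTG and 9612 in dnPI3K, made up most of the dnPI3K sum. Myl4 and Myl7 had dnPI3K means of 37.9 and 73.7. The summed intensity of 8 skeletal muscle markers, none of them listed at 0, was 16008 to 22348 in caPI3K, 9741 to 12071 in NTG and 3890.3 to 4865 in dnPI3K. Myl1 and Casq1 carry most of that sum and its order, and both fell in dnPI3K against NTG (log2 -2.02 and -1.84, limma adjusted p = 0.00325 and 0.00272). The means of Ckm (2542 in NTG, 2293 in caPI3K, 1814 in dnPI3K), Myh4 (509, 417 and 408) and Actn3 (130.0, 125 and 82.8) were highest in NTG, and Myh1 and Tnni2 were too dim to test. In whole tissue, fewer cells of a type and less RNA per cell cannot be told apart.

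In caPI3K hearts, 1 chaperone gene rose against NTG, Hsph1 (1.43% of 70 tested, where 0.0845% of all probe sets passed, 0.047% higher and 0.0376% lower). In dnPI3K hearts, 2 J protein genes rose against NTG, Dnajb6 and Dnajc10 (2.86% of 70, where 2.18% of all probe sets passed, 1.01% higher and 1.16% lower). Between the transgenic groups, Hspa8, Hsph1, Hsp90aa1 and Fkbp4 were higher in caPI3K and Dnajb6 was higher in dnPI3K, 5 of 70 or 7.14%, where 3.24% of all probe sets passed, 1.7% higher and 1.54% lower in caPI3K. The moderated F test for any difference between the 3 groups passed for these 5 genes, with 2.63% of all probe sets past it. With no intensity trend in limma's moderation, Dnajb6 alone of the 5 passed between the transgenic groups, and with the mean of all probe sets of a gene Dnajb6 did not pass. Each comparison shares its arrays with another, so these counts are not independent of each other.

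**Figure D1:**
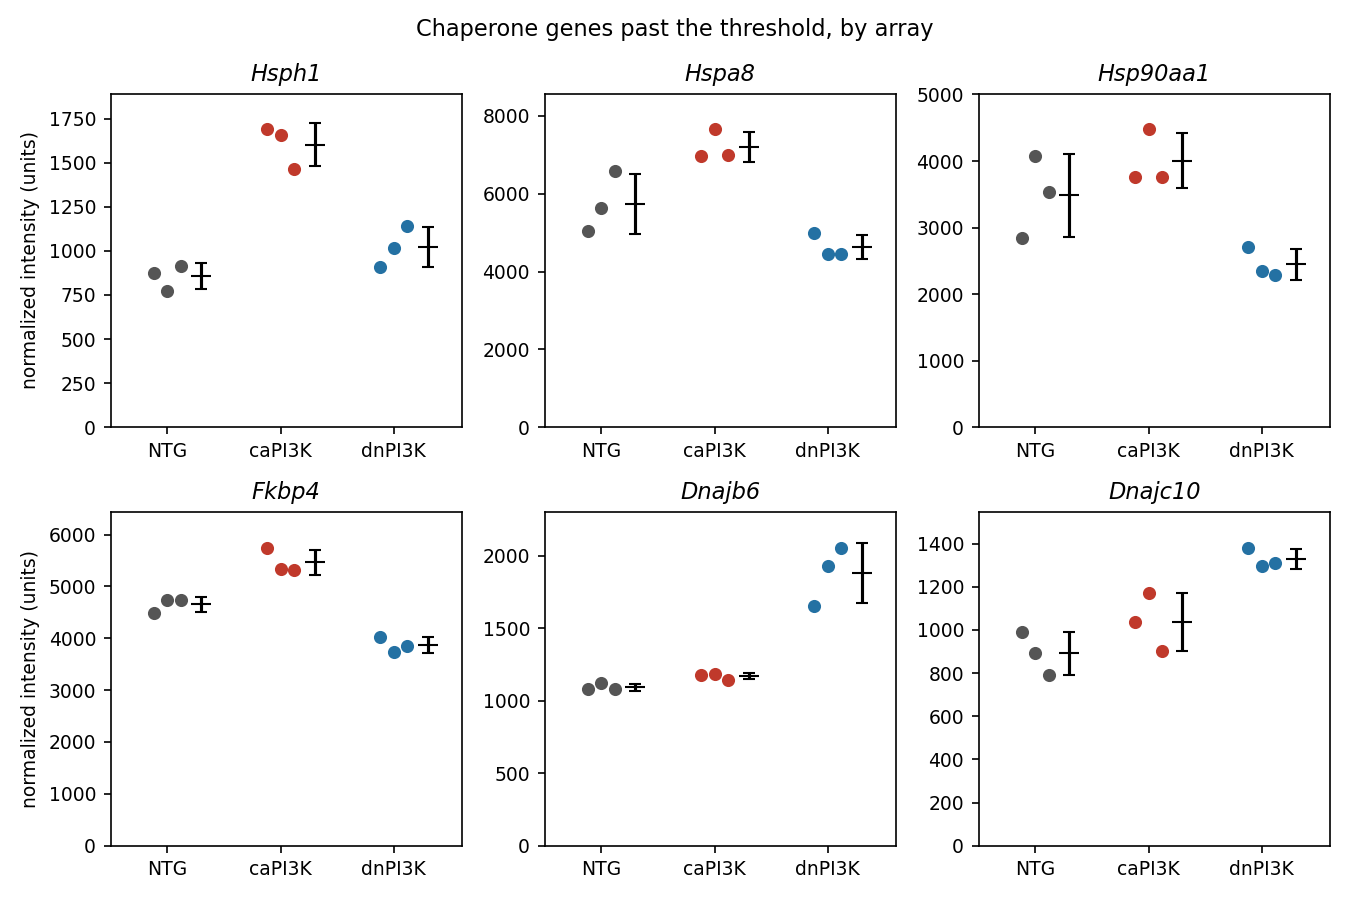
Normalized intensity (y axis, linear, from 0) of the 6 chaperone genes past the threshold in at least 1 comparison. Points are arrays, in replicate order from left to right, and bars are mean ± SD of 3 arrays; the caPI3K arrays of Hsph1 lie at 1465 to 1691, above all others, and the dnPI3K arrays of Dnajb6 at 1651 to 2054, above all others.

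Hsph1 encodes HSP105, the HSP110 protein that exchanges nucleotide on HSP70. It read 878, 773 and 917 on the NTG arrays, 1691, 1656 and 1465 on the caPI3K arrays, and 910.5, 1016 and 1139 on the dnPI3K arrays. All caPI3K arrays lay above all others, and the NTG and dnPI3K arrays overlapped. The mean was 1604 ± 122 in caPI3K against 856 ± 74.3 in NTG, a log2 fold change of 0.91 ± 0.119 (SE; limma adjusted p = 0.0255), or 1.88-fold. Against dnPI3K it was 0.65 ± 0.119 (limma adjusted p = 0.0157), and dnPI3K against NTG gave 0.25 (limma adjusted p = 0.358). Within the number series that hold both groups, caPI3K minus NTG was 1.02 in the lower one, with 2 arrays a group, and 0.68 in the higher one, with 1 array a group, and with the series as a block it was 0.91 (limma adjusted p = 0.0407). The call against NTG was lost in a fit of the 2 groups alone (0.91, limma adjusted p = 0.123) and when any array except dnPI3K replicate 1 or NTG replicate 1 was left out, with log2 fold changes of 0.83 to 0.97 in those fits (0.83, limma adjusted p = 0.191, without NTG replicate 2). It was also lost with no filter on dim probe sets (limma adjusted p = 0.0972) or no intensity trend in the moderation (limma adjusted p = 0.126), and the call against dnPI3K was lost without caPI3K replicate 1 or 2 or dnPI3K replicate 1 or 2 (log2 0.57 to 0.65).

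Hspa8 encodes HSC70, the constitutive cytosolic HSP70. Its NTG arrays read 5043, 5625 and 6570.0, its caPI3K arrays 6967, 7656 and 6999.7, and its dnPI3K arrays 4987, 4453 and 4442. The 3 groups did not overlap, in the order caPI3K, NTG, dnPI3K. Between the transgenic groups the log2 fold change was 0.64 ± 0.104 (limma adjusted p = 0.00849), 1.56-fold. Neither step from NTG passed: 0.33 ± 0.104 for caPI3K (limma adjusted p = 0.495) and -0.31 ± 0.104 for dnPI3K (limma adjusted p = 0.193).

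Hspa1a encodes the stress-inducible HSP70. It read 127, 178 and 146 in NTG, 270.1, 247 and 431 in caPI3K, and 168, 142 and 211 in dnPI3K. Every caPI3K array lay above every other array, yet the difference from NTG, 1.04 ± 0.283 or 2.06-fold, did not pass (limma adjusted p = 0.453). Its near-identical neighbour Hspa1b gave 0.91 ± 0.339 (limma adjusted p = 0.633), from 74.5 to 190.6 in NTG and 217 to 273 in caPI3K. Probes may not separate these 2 genes, so their values are uncertain individually.

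The other HSP70 and HSP110 genes were Hspa1l, Hspa2, Hspa4, Hspa4l and Hspa14. Hspa4l, a relative of Hsph1 in the HSP110 family, read 608, 543 and 538 in NTG, 1017, 814 and 623 in caPI3K, and 692, 694 and 814 in dnPI3K. Both transgenic groups lay above NTG without overlap, and neither difference passed (0.51, limma adjusted p = 0.538; 0.38, limma adjusted p = 0.337). Hspa1l, a constitutive HSP70 known from the testis, was 367 to 624 in caPI3K and 159 to 352 in dnPI3K (log2 1.02 ± 0.33, limma adjusted p = 0.136). Of the 9 genes of the class, all 9 had a caPI3K mean above NTG, with a median log2 fold change of 0.38, where the median over all genes tested was 0. For dnPI3K 7 of 9 lay above NTG, with a median of 0.20. The class median of each caPI3K array against the NTG mean was 0.72, 0.53 and 0.29, and of each dnPI3K array 0.09, 0.25 and 0.38, so the groups overlapped here. Of the 9, 1 passed the test in caPI3K against NTG (Hsph1) and 2 in caPI3K against dnPI3K (Hspa8 and Hsph1). These are 11.1% and 22.2% of the class, where 0.0845% and 3.24% of all probe sets passed.

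Hsp90aa1 encodes the inducible cytosolic HSP90. It read 2840.1, 4074 and 3532 in NTG, 3758, 4477 and 3767 in caPI3K, and 2708, 2344 and 2283 in dnPI3K. The dnPI3K arrays lay below all others, and NTG and caPI3K overlapped. The difference between the transgenic groups was 0.71 ± 0.135 (limma adjusted p = 0.0178), 1.64-fold, and dnPI3K against NTG gave -0.50 ± 0.135 (limma adjusted p = 0.0974). A second, dim probe set of the gene, near the floor, gave -0.76 ± 0.455 between the transgenic groups (limma adjusted p = 0.458). The call was lost without caPI3K replicate 2 (0.63, limma adjusted p = 0.0908), dnPI3K replicate 2 (0.68, limma adjusted p = 0.0758) or dnPI3K replicate 3 (0.66, limma adjusted p = 0.071), and with no filter on dim probe sets (limma adjusted p = 0.0699).

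Fkbp4 encodes FKBP52, the immunophilin that couples HSP90 to steroid receptors. The NTG arrays read 4490.4, 4734 and 4737, the caPI3K arrays 5746, 5342 and 5320.4, and the dnPI3K arrays 4031, 3731 and 3846. As with Hspa8, the groups did not overlap and ran caPI3K, NTG, dnPI3K. caPI3K exceeded dnPI3K by 0.50 ± 0.0752 (limma adjusted p = 0.00528), 1.41-fold. The second probe set gave 0.25 ± 0.11 (limma adjusted p = 0.288).

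Stip1 encodes HOP, the adaptor that joins HSP70 to HSP90. It was 497, 396 and 482 in NTG, 666, 524 and 598 in caPI3K, and 393, 493 and 488 in dnPI3K. All caPI3K arrays were above all others, with 0.38 ± 0.162 against NTG that did not pass (limma adjusted p = 0.701). Fkbp5, the glucocorticoid-induced relative of Fkbp4, overlapped in all comparisons (388 to 745 in NTG, 406 to 817 in caPI3K, 427 to 808 in dnPI3K). The 4 genes of this class had median log2 fold changes of 0.22 in caPI3K and -0.13 in dnPI3K against NTG, with 4 and 1 of 4 above 0.

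The order caPI3K, NTG, dnPI3K seen for Hspa8 and Fkbp4 is also that of the summed skeletal muscle markers (16008 to 22348, 9741 to 12071 and 3890.3 to 4865), where Myl1 and Casq1 set it and Ckm, Myh4 and Actn3 had higher means in NTG than in caPI3K. Hsp90aa1 runs in the same order of means, and Hsph1 does not, since its dnPI3K mean of 1022 ± 115 lies above its NTG mean. The summed smooth muscle markers ran the other way, at 1324 to 1755, 2069 to 2218 and 3148 to 4012. The part of these markers, and of the atrial markers and Mybpc3, in the chaperone values was not tested.

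Motif searches in RefSeq promoter windows (mouse assembly GRCm38.p6, 250 bases before to 50 after the transcript start, both strands) set these genes beside each other. The windows matched 61 of the 71 genes, and not Hspa8 or Hsp90aa1, among others. A heat shock element of 2 inverted units, GAANNTTC or TTCNNGAA, was found for 16 of the 61 genes (26.2%) and for 17% of all 27025 genes in the table. The form with 3 units, GAANNTTC followed by NNGAA or TTCNNGAA followed by NNTTC, which contains the shorter one, was found for 4 genes (6.56%; Hsph1, Dnajb6, Hspd1 and Hspe1) and 0.662% of all genes. The endoplasmic reticulum stress element, CCAAT and CCACG with 9 bases of any kind between them, was found for 6 genes (9.84%; Hspa5, Hsp90b1, Calr, Canx, Pdia6 and Dnajc3) and 0.137% of all genes.

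The stretches around the matches are shown for the genes past the test that had one upstream of the start, and for Hspa1a, Hspd1, Hspa5 and Hsp90b1 as textbook targets of heat shock or of endoplasmic reticulum stress. They run 5′ to 3′ on the gene's strand, with the match in capitals, at chr5:149636337-149636409 (Hsph1, minus strand), chr6:128438760-128438847 (Fkbp4, minus), chr17:34972213-34972300 (Hspa1a, minus), chr2:80315244-80315331 (Dnajc10, plus), chr5:29735812-29735897 (Dnajb6, plus), chr1:55088019-55088116 (Hspd1, minus), chr2:34771985-34772083 (Hspa5, plus) and chr10:86705493-86705694 (Hsp90b1, minus). The first 4 hold the 2-unit element, Dnajb6 the 3-unit element, Hspd1 a pair of overlapping 3-unit elements, and the last 2 the endoplasmic reticulum stress element, 1 in Hspa5 and 2 in Hsp90b1.
Hsph1: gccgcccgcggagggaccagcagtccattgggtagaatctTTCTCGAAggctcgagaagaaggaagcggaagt
Fkbp4: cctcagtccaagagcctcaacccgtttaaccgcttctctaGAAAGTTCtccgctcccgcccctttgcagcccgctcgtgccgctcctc
Hspa1a: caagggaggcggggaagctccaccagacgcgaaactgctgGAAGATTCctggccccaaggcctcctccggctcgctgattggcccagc
Dnajc10: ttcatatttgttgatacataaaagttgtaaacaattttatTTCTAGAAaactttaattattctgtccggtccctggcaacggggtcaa
Dnajb6: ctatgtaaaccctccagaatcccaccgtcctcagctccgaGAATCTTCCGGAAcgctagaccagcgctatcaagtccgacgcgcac
Hspd1: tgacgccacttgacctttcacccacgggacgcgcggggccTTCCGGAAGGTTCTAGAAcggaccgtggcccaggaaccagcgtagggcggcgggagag
Hspa5: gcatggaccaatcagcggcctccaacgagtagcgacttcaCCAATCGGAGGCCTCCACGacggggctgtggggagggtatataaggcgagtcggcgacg
Hsp90b1: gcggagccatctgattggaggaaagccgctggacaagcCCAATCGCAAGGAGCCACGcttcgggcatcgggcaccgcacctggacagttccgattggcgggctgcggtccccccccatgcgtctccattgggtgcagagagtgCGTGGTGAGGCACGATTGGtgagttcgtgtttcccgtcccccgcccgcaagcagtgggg

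Hspd1 and Hspe1 lie head to head, so the same stretch of chromosome 1 precedes both starts. The 3-unit match of Hsph1 lies after its start and is not shown. These are matches of letters, with no measure of binding. Among tested genes with a window, the 16 with the 2-unit element had a median log2 fold change of 0.23 in caPI3K against NTG, and the 44 without it 0.02. In dnPI3K against NTG these medians were 0.09 and 0.06, and between the transgenic groups 0.26 and 0.03. The 16 include the near-identical Hspa1a and Hspa1b, and Bag3, Cct6a and Hspb8, which match only after the start. The 4 genes with the 3-unit element had medians of 0.21, 0.12 and 0.44 in the same order of comparisons. The 56 without it had 0.13, 0.06 and 0.06. In caPI3K and dnPI3K against NTG, the 6 genes with the endoplasmic reticulum stress element had medians of -0.14 and -0.23, against 0.14 and 0.09 for the 54 without it. Both comparisons use NTG replicate 3, on which the whole class of 13 endoplasmic reticulum genes lay 0.38 above the NTG mean in the median. The part of that array in the medians of the 6 genes was not tested. Between the transgenic groups the medians were 0.08 with the element and 0.06 without it. Calr, among the 6, was near the floor.

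**Figure D2:**
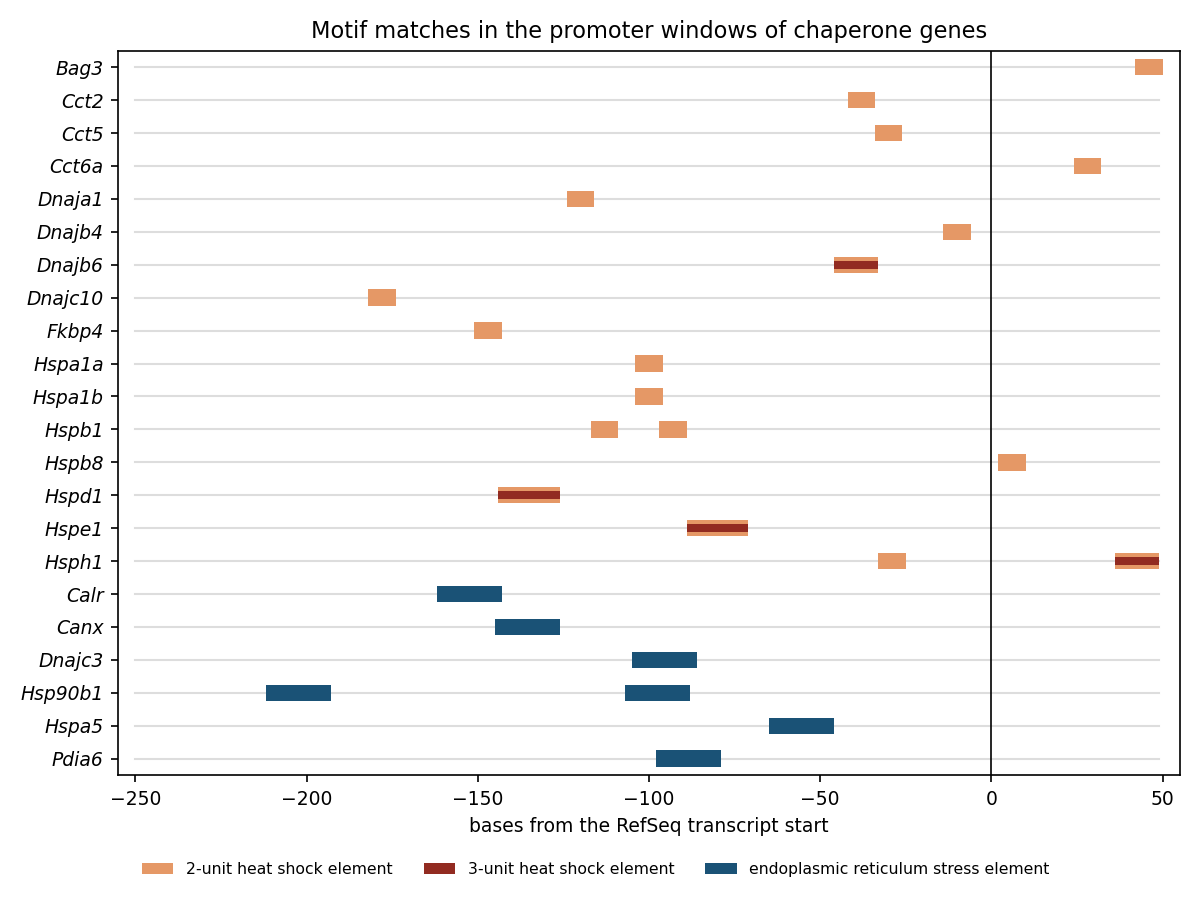
Position of motif matches in the promoter windows of the chaperone genes that have any, in bases from the transcript start (x axis). Orange blocks are 2-unit heat shock elements, dark red 3-unit heat shock elements and blue endoplasmic reticulum stress elements; 16 genes carry the first, 4 the second and 6 the third.

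Of the J proteins of the cytosol and nucleus, Dnajb6 passed the test. It encodes a J protein that suppresses aggregation and, in muscle, sits at the Z-disc. It read 1079, 1122 and 1077 in NTG, 1179, 1182 and 1145 in caPI3K, and 1651, 1931 and 2054 in dnPI3K. The dnPI3K arrays lay above the other 6, at 0.78 ± 0.101 against NTG (limma adjusted p = 0.00431), 1.71-fold, and caPI3K lay 0.68 below dnPI3K (log2 -0.68 ± 0.101, limma adjusted p = 0.00491). caPI3K exceeded NTG by 0.10, which did not pass (limma adjusted p = 0.882). A second probe set did not show this: it read 1066, 821 and 1202 in NTG and 949.9, 989 and 851 in dnPI3K (log2 -0.13 ± 0.142, limma adjusted p = 0.739). With the mean of both, neither call of Dnajb6 passed: it gave 0.32 in dnPI3K against NTG (limma adjusted p = 0.15) and -0.36 between the transgenic groups (limma adjusted p = 0.0894). Both calls rest on 1 of its 2 probe sets.

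Dnajb4 and Dnajb1, type II J proteins that work with cytosolic HSP70, lay above NTG in both transgenic groups without overlap. Dnajb4 read 467, 737 and 612 in NTG, 791, 961 and 1008 in caPI3K, and 760.2, 778 and 1012 in dnPI3K. Neither difference passed (0.62 and 0.50; limma adjusted p = 0.484 and 0.226). Dnajb1 read 312, 329 and 319 in NTG, 353, 399.6 and 484 in caPI3K, and 406, 471 and 438 in dnPI3K, at 0.35 and 0.45 (limma adjusted p = 0.719 and 0.222). Dnajb5, another type II J protein gene, was 73.3 to 168 in NTG and 183 to 485 in dnPI3K (1.21, limma adjusted p = 0.273), with caPI3K at 78.8 to 216. Dnajb13, a J protein of sperm tails, was 382 to 592 in caPI3K and 493 to 664 in NTG (-0.44, limma adjusted p = 0.707). Dnajb2, which passes clients to the proteasome, was 995 to 1188 in caPI3K and 1149 to 1519 in dnPI3K (-0.32, limma adjusted p = 0.238). Over the 18 genes of the class the median was 0.01 in caPI3K, with 10 above 0, and 0.15 in dnPI3K, with 13 above 0. Between the transgenic groups 13 of 18 were lower in caPI3K (median -0.12), and 1 of them, Dnajb6, passed. That is 5.56% of the 18, where 3.24% of all probe sets passed. The share was also 5.56% in dnPI3K against NTG, where 2.18% of all probe sets passed.

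Of the small heat shock proteins, Cryab encodes alpha-B crystallin, which binds desmin and titin. Its arrays read 4711, 4978 and 5708 in NTG, 6542, 6434 and 5592 in caPI3K, and 4932, 4689.7 and 3767 in dnPI3K. caPI3K and dnPI3K did not overlap, and the difference of 0.48 ± 0.119 did not pass (limma adjusted p = 0.0598), although it did on the deposited values without quantile normalization (0.49, limma adjusted p = 0.0359).

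Hspb8, the partner of Bag3 in chaperone-assisted autophagy, read 12548, 12111 and 10469 in caPI3K and 8751, 8957 and 9234 in dnPI3K, with NTG at 8336 to 10684. Its difference was 0.38 ± 0.107 (limma adjusted p = 0.093). Hspb2, which lies next to Cryab in the genome, gave 0.41 ± 0.116 (limma adjusted p = 0.09). Its second probe set passed, at 2298, 2639.8 and 1805 in caPI3K and 1347, 1391 and 1367 in dnPI3K (0.70 ± 0.137, limma adjusted p = 0.0203). It was the only one of 32 further tested chaperone probe sets to pass in any comparison. Hspb1, the inducible HSP25, was dim, at 14.8 to 106 on all arrays. All 5 genes placed by symbol among the small heat shock proteins had dnPI3K means below NTG on the log2 scale, with a median of -0.21. None passed. Hspb1 and Hspb11 had arrays at or below the floor, and Hspb1 ran from -0.33 to 0.28 with 1 array left out. For 1 of the 5 the unadjusted p was under 0.05 in dnPI3K against NTG (20%, where 14.8% of all probe sets had one). In caPI3K against NTG it was 2 of 5 (40%, where 6.9% had one), with a class median of 0.09. Between the transgenic groups it was 3 of 5 (60%, where 16.4% had one), with a median of 0.38.

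**Figure D3:**
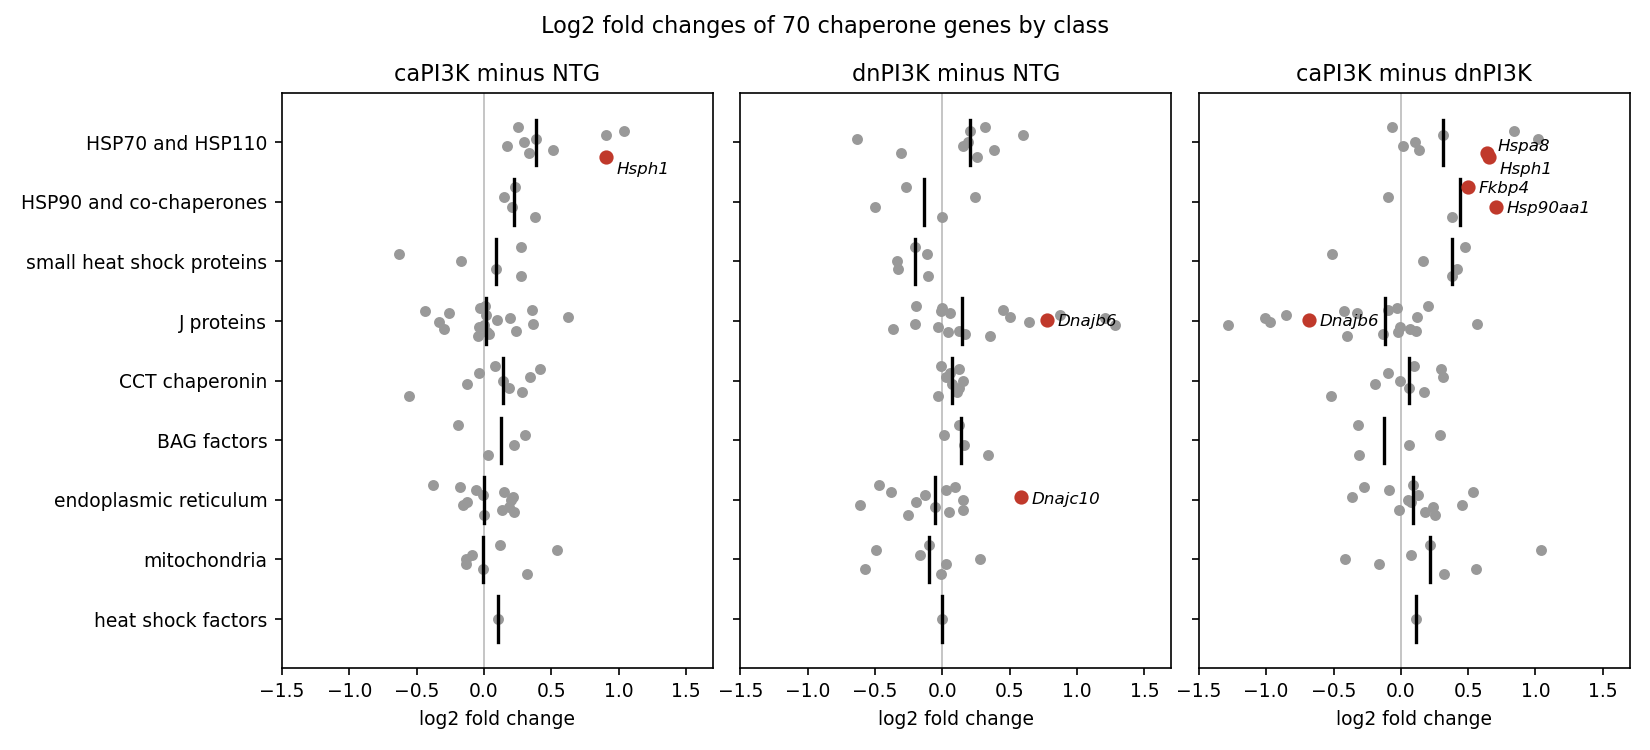
Log2 fold change (x axis) of the 70 tested chaperone genes by class (rows) in the 3 comparisons (panels). Points are genes, red and named where past the threshold, and black bars are class medians; the HSP70 and HSP110 genes lie to the right of 0 in caPI3K minus NTG, with a median of 0.38, and the J proteins have a median of -0.12 in caPI3K minus dnPI3K.

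The CCT chaperonin is a ring of 8 related subunits in the cytosol. None of its 9 measured genes (Tcp1 and Cct2 to Cct8, with Cct6a and the testis form Cct6b) passed in any comparison by limma. Of the 9, 2 had an unadjusted p under 0.05 in caPI3K and 0 in dnPI3K, each against NTG, and 2 between the transgenic groups. These are 22.2%, 0% and 22.2%, where 6.9%, 14.8% and 16.4% of all probe sets had one. Cct5 read 2298, 2295 and 2325 in NTG, 3072, 3029.9 and 2671 in caPI3K, and 2585, 2142 and 2357 in dnPI3K. Its caPI3K arrays were above all others, at 0.34 ± 0.0947 against NTG (limma adjusted p = 0.462). Cct3 also had its caPI3K arrays above all others (895 to 1061, against 665 to 799 in NTG and 769 to 861 in dnPI3K). Its difference from NTG was 0.42 (limma adjusted p = 0.481), and 0.22 to 0.50 over the alternatives run. Tcp1, the subunit CCT1, went the other way, at 242 to 383 in caPI3K and 369 to 556 in NTG (-0.56, limma adjusted p = 0.722). Cct7 gave 0.18 in caPI3K (1955 to 2168 in NTG, 2258 to 2394 in caPI3K; limma adjusted p = 0.82), and Cct6a gave 0.14 and 0.15 in caPI3K and dnPI3K with overlap. The class median was 0.14 in caPI3K and 0.07 in dnPI3K.

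Among the 4 BAG factors, Bag6, which guards newly made tail-anchored proteins, was 1021 to 1098 in NTG and 1153 to 1493 in dnPI3K (0.34 ± 0.125, limma adjusted p = 0.223). Bag3, the stress-induced partner of HSP70 and small heat shock proteins in muscle, was 2983 to 4121 in NTG, 3662 to 4159 in caPI3K and 3602 to 4016 in dnPI3K, and the groups overlapped. Bag1, a nucleotide exchange factor of HSP70, was 802 to 962 in caPI3K and 984 to 1232 in dnPI3K (-0.32 ± 0.142, limma adjusted p = 0.297). Bag2, which blocks the ubiquitin ligase CHIP, was 1954 to 2447 in caPI3K and 1676 to 1895 in dnPI3K (0.29 ± 0.172, limma adjusted p = 0.451), and its second probe set gave -0.11. No BAG factor passed by limma. Unadjusted p-values under 0.05 numbered 0 in caPI3K and 1 in dnPI3K, each against NTG, and 2 between the transgenic groups. These are 0%, 25% and 50% of the 4, where 6.9%, 14.8% and 16.4% of all probe sets had one.

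In the endoplasmic reticulum, 1 of 13 genes passed, in dnPI3K against NTG (7.69%, where 2.18% of all probe sets passed). Dnajc10 encodes ERdj5, a disulfide reductase that aids the degradation of misfolded proteins. It read 989, 895 and 789 in NTG, 1035, 1173 and 902 in caPI3K, and 1381, 1295 and 1309 in dnPI3K. The dnPI3K arrays lay above all others, at 0.58 ± 0.125 against NTG (limma adjusted p = 0.0429), 1.5-fold. This call was lost when any array except caPI3K replicate 3 or NTG replicate 1 was left out, with log2 fold changes of 0.50 to 0.60 in those fits (0.59, limma adjusted p = 0.115, without NTG replicate 2), and with no filter, no intensity trend, array weights or only the 2 groups (limma adjusted p of 0.0576 to 0.133).

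Hspa5 encodes BiP, the HSP70 of the endoplasmic reticulum and the classical target of the unfolded protein response. It read 4081, 5258 and 7793 in NTG, 4259, 5718 and 4948 in caPI3K, and 3689.9, 3329.6 and 3820.2 in dnPI3K. The dnPI3K arrays were below all others, and the difference from NTG of -0.61 ± 0.197 did not pass (limma adjusted p = 0.167). NTG replicate 3 was the highest array for Hspa5. It was also the highest for Dnajb9 (ERdj4), at 1166 against 528 and 555 on the other NTG arrays, and for Pdia3 (ERp57), at 1156 against 313 and 476. Over the 13 genes it lay 0.38 above the NTG mean in the median, and NTG replicates 1 and 2 lay at -0.20 and -0.08. Without it, Hspa5 in dnPI3K against NTG was -0.36 (limma adjusted p = 0.249) and Dnajb9 in caPI3K against NTG was 0.52 in place of 0.15. Hsp90b1 (GRP94), a further target of that response, overlapped in all groups (2122 to 3374 in NTG, 1997 to 2870.2 in caPI3K, 1994 to 2354 in dnPI3K). The lectin chaperone calnexin (Canx) was 662 to 795 in caPI3K and 817 to 994 in dnPI3K (-0.27, limma adjusted p = 0.393), and calreticulin (Calr) was dim, at 5.6 to 75.0 on all arrays. The class medians were -0.0022 in caPI3K and -0.05 in dnPI3K against NTG.

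**Figure D4:**
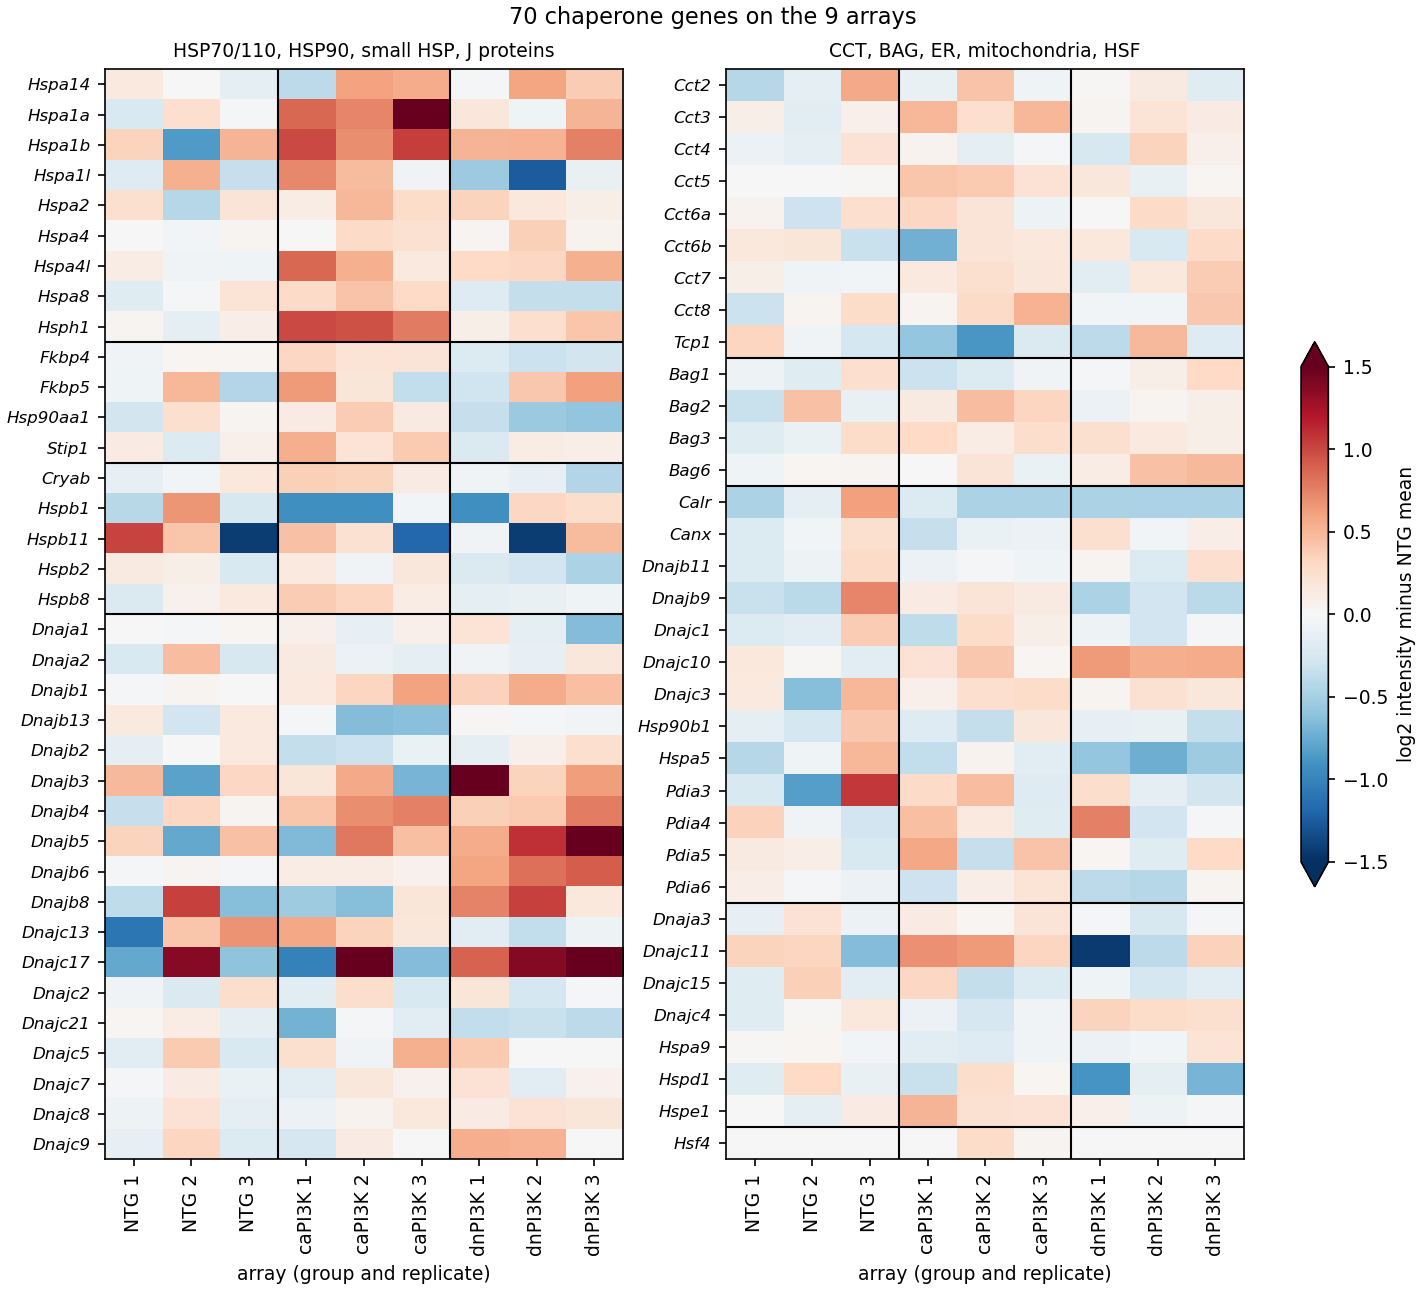
Log2 intensity minus the NTG mean (colour scale, limited at ±1.5) of the 70 tested chaperone genes (rows, grouped by class) on the 9 arrays (columns). The row of Hsph1 is red on all caPI3K arrays, the row of Dnajb6 on all dnPI3K arrays, and NTG replicate 3 is red for Hspa5, Dnajb9 and Pdia3.

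The mitochondrial chaperones hold no gene past the test by limma. Unadjusted p-values under 0.05 numbered 1 of 7 in caPI3K and 2 of 7 in dnPI3K, each against NTG, and 4 of 7 between the transgenic groups. These are 14.3%, 28.6% and 57.1%, where 6.9%, 14.8% and 16.4% of all probe sets had one. Hspe1 (HSP10), the lid of the HSP60 cage, read 2792, 2547 and 3043 in NTG, 3957, 3271 and 3231 in caPI3K, and 2934, 2643 and 2749 in dnPI3K. The caPI3K arrays were above all others (0.32 ± 0.105 against NTG, limma adjusted p = 0.534). Hspd1 (HSP60) did not follow its partner: it read 7051, 9818 and 7384 in NTG, 6363, 9608 and 8183 in caPI3K, and 4319, 7282 and 4948 in dnPI3K, with overlap throughout. Its dnPI3K difference was -0.57 ± 0.207 (limma adjusted p = 0.22). Hspa9 (mortalin), the HSP70 of the import motor, was within 4987 to 6570.0 on all arrays. Dnajc4, a J protein placed in this class, was above the others in dnPI3K (889.6 to 951, against 666 to 845 in NTG and 635 to 727 in caPI3K; 0.28, limma adjusted p = 0.317). Dnajc11, a J protein bound to the MICOS complex of the inner membrane, overlapped between dnPI3K (114, 233 and 391.6) and caPI3K (492, 478 and 382) (1.04 ± 0.41, limma adjusted p = 0.226). The class medians were -0.01 and -0.10. Hsf4, the other heat shock factor measured, lay at 16.7 to 42.9, around the floor.

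Over all 70 tested genes, 45 had a caPI3K mean above NTG on the log2 scale (64.3%, where 49.7% of all probe sets did), with a median of 0.13. Arrays of the 2 groups did not overlap for 14 genes higher and 1 lower in caPI3K, 21.4% of the 70, where 12.1% of all probe sets did not overlap (6.5% higher, 5.59% lower). An unadjusted p under 0.05 was found for 13 higher and 1 lower, 20%, where 6.9% of all probe sets had one (3.68% higher, 3.21% lower). By compartment, 36 of 50 cytosolic and nuclear genes lay above 0 in caPI3K (median 0.16), as did 6 of 13 genes of the endoplasmic reticulum and 3 of 7 mitochondrial genes.

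For dnPI3K against NTG, 40 of the 70 lay above 0 (57.1%, where 50.5% of all probe sets did), with a median of 0.04. Arrays did not overlap for 8 genes higher and 5 lower (18.6%, where 19.1% of all probe sets did not, 9.91% higher and 9.21% lower), and the unadjusted p was under 0.05 for 8 and 6 (20%, where 14.8% of all probe sets had one, 7.58% higher and 7.23% lower). Between the transgenic groups, 42 of 70 were higher in caPI3K (60%, where 50% of all probe sets were), and arrays did not overlap for 19 higher and 5 lower (34.3%, where 23.7% of all probe sets did not, 11.4% higher and 12.3% lower). The unadjusted p was under 0.05 for 16 higher and 6 lower (31.4%, where 16.4% of all probe sets had one, 8.1% higher and 8.33% lower).

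Where a gene had several tested probe sets, which holds for 22 genes, the further 32 probe sets had the sign of the brightest one in 22 cases in caPI3K and 20 in dnPI3K, each against NTG, and in 25 between the transgenic groups.

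A list of 59 other chaperone network genes lay outside the symbol rule. It held prefoldins, HSP90 co-factors such as Cdc37, mitochondrial proteases, and folding enzymes and sensors of the endoplasmic reticulum. Of these genes 44 were measured and 42 tested. None passed against NTG in either transgenic group by limma. An unadjusted p under 0.05 was found for 5 higher and 1 lower in caPI3K (14.3% of 42, where 6.9% of all probe sets had one), and for 4 higher and 4 lower in dnPI3K (19%, where 14.8% had one). Their median log2 fold changes were 0.0064 and -0.03. By the brightest probe set, 2 passed between the transgenic groups, both higher in caPI3K (4.76% of 42, where 3.24% of all probe sets passed). Serpinh1 (HSP47), the collagen chaperone, was 2894 to 3215 in caPI3K and 1721 to 2072 in dnPI3K (0.70 ± 0.139, limma adjusted p = 0.0227). P4hb, protein disulfide isomerase, was 964.5 to 1686 in caPI3K, 363 to 595 in NTG and 469 to 620 in dnPI3K (1.25 ± 0.232, limma adjusted p = 0.016). A second probe set of P4hb gave 0.07 between the transgenic groups. A second, dimmer probe set of the listed gene Sugt1 passed in the other direction, lower in caPI3K (-0.77 ± 0.133, limma adjusted p = 0.0122). The brightest probe set of Sugt1 did not show this (0.07, limma adjusted p = 0.831). The smallest p-values of the other listed genes were these. Erp29, a lumenal folding factor, read 815 to 874 in NTG, 977 to 1046 in caPI3K and 1055 to 1145 in dnPI3K, without overlap between any groups. Its differences from NTG were 0.25 and 0.37 (limma adjusted p = 0.652 and 0.0851). Ddit3 (CHOP), a transcription factor of endoplasmic reticulum stress, read 184 to 336 in NTG, 353 to 438 in caPI3K and 366 to 563 in dnPI3K. Both transgenic groups lay above NTG without overlap, at 0.59 and 0.82 (limma adjusted p = 0.691 and 0.136). Chordc1, a co-chaperone of HSP90, gave -0.56 in dnPI3K against NTG, without overlap (limma adjusted p = 0.113), and 0.62 between the transgenic groups (limma adjusted p = 0.0679). A second probe set of Chordc1, with means of 1077 in NTG and 1010 in dnPI3K, did not show this. It gave -0.10 and 0.07 in these comparisons (limma adjusted p = 0.763 and 0.831). In caPI3K against NTG, Txndc5, a disulfide isomerase, gave 0.66 with overlap (limma adjusted p = 0.534).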

How the data were processed

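Ventricle RNA of each of 9 mice was measured on its own 1-colour oligonucleotide array. The deposited values are intensity values on a linear scale, 1 per probe set and array. Each array has the same 2% trimmed mean (500.4), so the authors' deposited values had been scaled to a common level, and the sources used here do not say by which method. Gene symbols came from the platform's annotation table, and the Entrez gene of all 71 genes was found with the same symbol in RefSeq (GRCm38.p6).

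The values were quantile normalized, set to at least their 20th percentile (the floor, 35.34) and taken to log2. Probe sets above the floor on at least 3 arrays were tested, without 66 control probe sets, which left 10645. Groups were read from the sample titles. All 9 arrays entered 1 limma fit (version 3.58.1, R 4.3.3; lmFit, contrasts.fit, eBayes with an intensity trend) with group as its only term and 6 residual degrees of freedom. Tests were two-sided with Benjamini-Hochberg adjustment over all probe sets tested. The number of arrays limits the precision. The labels give heart size relative to wild type littermates, but do not say which of the 9 animals, if any, shared a litter. The fit was tested on simulated data. The genes, their classes and the marker and network lists were chosen with earlier results of these data known. Described individually are Hsph1, Hspa8, Hspa1a and Hsp90aa1, every gene past the threshold, and up to 3 genes per class with the smallest p in each comparison. Hspa1b, Dnajb5, Hsp90b1, Pdia3 and Hsf2 fall outside that rule and were added after their values were seen. Network genes are named where past the threshold or among the 3 smallest p of a comparison. Promoter windows are RefSeq's; protein sequences were not used here. Alternatives changed 1 choice at a time (normalization, floor, filter, moderation, weights, probe set per gene, groups fitted, number series, each array left out).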

Additional observations from a re-analysis of the deposited data

How the results depend on the processing

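Counts are of the chaperone genes past the threshold by limma. In caPI3K against NTG the count of 1 became 0 with no filter on dim probe sets, with no intensity trend and in a fit of only the 2 groups, where 1, 1 and 0 of all probe sets passed (9 in the fit reported) and 826, 719 and 660 had an unadjusted p under 0.05. It was 0 to 1 with 1 array left out. In dnPI3K against NTG the count of 2 became 1 with no filter, no intensity trend, array weights, the mean of all probe sets of a gene and only the 2 groups, and 1 to 4 with 1 array left out. The 4 came without NTG replicate 1, where Hsp90aa1 (-0.64, limma adjusted p = 0.0399) and Hspa5 (-0.83, limma adjusted p = 0.0498) passed too. Between the transgenic groups the count of 5 became 1 with no intensity trend, and 3 to 8 with 1 array left out. The 3 came without caPI3K replicate 2 or dnPI3K replicate 2, and the 8 without NTG replicate 3, with Cryab, Hspb2 and Dnajb9 added. The F test's count of 5 became 3 with no filter and 2 with no intensity trend, and 2 to 7 with 1 array left out.

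Over all probe sets, dnPI3K against NTG gave 232 calls and caPI3K against dnPI3K 345. These became 138 and 219 with no filter, and 94 and 151 with no intensity trend. The first became 94 with only the 2 groups, and the second 527 with array weights. With 1 array left out the counts were 0 to 20 for caPI3K against NTG, 82 to 235 and 134 to 435. Scaling arrays to the same median moved the split of dnPI3K against NTG from 108 higher and 124 lower to 135 and 93.

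The difference of Hsp90aa1 between the transgenic groups, 0.71, turned to -0.024 with the mean of all its probe sets, of which the second gave -0.76. Log2 fold changes of the other genes past the threshold kept their direction in all alternatives run, and the ranges were 0.83 to 0.98 for Hsph1 against NTG, 0.60 to 0.69 for Hspa8, 0.37 to 0.53 for Fkbp4, 0.32 to 0.87 for Dnajb6 in dnPI3K and 0.50 to 0.67 for Dnajc10. No paired analysis was possible because the titles give animal numbers that no groups share. Dim genes near the floor carry little information on change.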
